A study of Mus musculus with 2 samples.

Results

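Spp1+Mmp13+ cells were a small set within the fibroblasts of mouse vein grafts, chosen because they held transcripts of osteopontin (Spp1) and of collagenase-3 (Mmp13) in the same barcode. They numbered 75 of the 12830 fibroblast gate cells, and of 21983 barcodes kept in all. A barcode was kept at 500 or more genes, 1000 or more unique molecular identifiers (UMIs, each counting 1 captured transcript) and at most 10% mitochondrial UMIs. It entered the fibroblast gate when Col1a1, Col1a2, Col3a1 and Dcn together made up at least 1.5% of its UMIs and when Cdh5 (endothelial) and Sox10 (Schwann) had no UMI. A gate cell was chosen when Spp1 reached 5 UMIs per 10000 and Mmp13 at least 1 UMI, with Pi16 under 10 and Saa3 under 60 UMIs per 10000. The choice therefore used measured values, so the levels of these genes describe the cells and support nothing further.

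The cells came from 2 single-cell libraries, 1 of No-Touch vein grafts, in which the vein is moved with the tissue around it, and 1 of conventional vein grafts. Both were made from C57BL6/J mice of 10 to 12 weeks, with no other genotype or treatment given in the labels. Papain digestion came first, collagenase I and dispase II were added for the tissue that remained, and live nucleated cells negative for CD45, a leukocyte surface protein, were sorted for 10x Genomics droplet capture. How many mice and grafts were pooled, how long after grafting they were taken and which 10x kit version each library used are not given in the sources used here. With 1 library per graft type no test was possible, so every value below describes these libraries and no difference has a replicate check.

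Osteopontin is a secreted phosphoprotein that binds integrins and CD44 and binds to mineral. In arteries and vein grafts it is known as a product of macrophages and of smooth muscle cells that have left the contractile state. Collagenase-3 cuts fibrillar collagens, is secreted as an inactive proenzyme, and is best known from cartilage, bone and remodelling wounds. Tissue inhibitors of metalloproteinases (Timp genes) bind and block such enzymes.

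The sequences just upstream of both genes are shown because the cells were chosen by the joint presence of their transcripts. Both are the 250 bases before the RefSeq gene start (RefSeq, GRCm38.p6, plus strand), Mmp13 from chr9:7272264-7272513 and Spp1, whose first of 2 listed starts was taken, from chr5:104434861-104435110. Capitals mark matches, on either strand, to the AP-1 motif TGACTCA, the Runx motif AACCACA and the PEA3 (Ets) motif AGGAAG.
Mmp13: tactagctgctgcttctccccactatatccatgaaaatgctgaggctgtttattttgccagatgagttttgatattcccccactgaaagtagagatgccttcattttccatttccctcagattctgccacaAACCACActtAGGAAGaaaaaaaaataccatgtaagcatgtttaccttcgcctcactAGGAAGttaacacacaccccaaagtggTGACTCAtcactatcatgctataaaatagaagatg
Spp1: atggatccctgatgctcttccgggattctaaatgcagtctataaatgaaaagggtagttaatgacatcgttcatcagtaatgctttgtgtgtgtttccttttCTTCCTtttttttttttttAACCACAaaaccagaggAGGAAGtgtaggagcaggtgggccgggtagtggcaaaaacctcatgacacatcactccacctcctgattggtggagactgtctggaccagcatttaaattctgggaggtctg
In the Mmp13 window the AP-1 match began 35 bases before the start, the Runx match 119 bases and the PEA3 matches 109 and 62 bases before it. In the Spp1 window the Runx match began 129 bases before the start and the PEA3 matches 148 (on the minus strand) and 112 bases before it, and the AP-1 letters were not in this window. No matches overlapped. Of all 27025 RefSeq promoter windows, 4.47% held the AP-1 letters, 4.40% the Runx letters and 29.2% the PEA3 letters. A match of letters is a description, not a binding site.

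The No-Touch library held 22 Spp1+Mmp13+ cells among 7912 gate cells, a share of 0.278% (95% interval 0.174 to 0.421%). The conventional library held 53 among 4918, a share of 1.08% (0.808 to 1.41%), so the No-Touch share was 0.258 times the conventional share. The intervals are exact (Clopper-Pearson for shares, Garwood for summed counts), cover counting error only, and did not overlap. In cells with Spp1 at the limit but Mmp13 at 0, the Pi16 and Saa3 limits kept, the libraries were closer. There were 192 such cells (2.43%) in the No-Touch and 128 (2.60%) in the conventional gate. The same set is meant where levels of cells at the Spp1 limit without Mmp13 are given below. Before the Pi16 and Saa3 limits it was 205 of 7482 No-Touch and 148 of 4073 conventional gate cells without Mmp13. Among gate cells under the Spp1 limit, whatever their Pi16 and Saa3 levels, 402 of 7679 No-Touch cells and 758 of 4683 conventional cells (16.2%) held at least 1 Mmp13 UMI.

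Depth differed between the libraries. The files held 373319906 UMIs in 12450 barcodes of the No-Touch library and 200851272 UMIs in 11899 barcodes of the conventional library, of which 11525 and 10458 were kept. Spp1+Mmp13+ cells had a median of 54276 UMIs and 7070 genes in the No-Touch library, against 32375 UMIs and 5614 genes in its other gate cells. In the conventional library they had a median of 29218 UMIs and 5385 genes, against 20591 UMIs and 4415 genes in its other gate cells. A rule that asks for 1 UMI is met more easily by a deeper barcode. With each barcode thinned to 3000 UMIs, and 302 shallower No-Touch and 622 shallower conventional barcodes left out, the rule chose 9 of 8587 No-Touch (0.105%) and 34 of 5393 conventional gate cells (0.630%). The gate limits were applied to the thinned counts too, so barcodes that lost their Cdh5 or Sox10 UMIs could enter it. The order of the libraries was then as before, although 6 of the 22 No-Touch and 27 of the 53 conventional cells passed the thinned rule. Endothelial gate cells, thinned alike, had an Mmp13 UMI in 0.403% (No-Touch) and 2.49% (conventional), so this order was not particular to Spp1+Mmp13+ cells. The libraries shared 22 barcode sequences, of which 18 were kept in both, and none of them was a Spp1+Mmp13+ cell.

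The limits cut through continuous values. The lowest Spp1 level inside the rule was 5.02 per 10000 in the No-Touch library and 5.55 in the conventional library, and the highest just outside it were 4.98 and 4.87. The highest Saa3 levels inside were 49.2 per 10000 (No-Touch) and 52.9 (conventional), and the lowest outside were 205 (No-Touch) and 60.2 (conventional). For Pi16 the highest inside were 9.62 (No-Touch) and 8.33 (conventional), with 17.5 and 10.1 as the lowest outside. The Saa3 limit set aside 4 No-Touch and 33 conventional cells that met everything else, and the Pi16 limit 2 No-Touch cells and 1 conventional cell. Without both limits the shares were 0.354% in the No-Touch and 1.77% in the conventional gate. The collagen sum was 1.52% in the lowest No-Touch and 1.62% in the lowest conventional cell inside, and 0.730% and 1.49% in the highest outside.

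Mmp13 itself fell into very unequal amounts. In the No-Touch library 12 cells held exactly 1 Mmp13 UMI, 2 held 2 to 9 and 8 held 10 or more, up to 532 UMIs in a cell. In the conventional library 23 cells held exactly 1, 9 held 2 to 9 and 21 held 10 or more, up to 347. Pooled over cells, Mmp13 stood at 694 CPM (UMIs per 1000000) in No-Touch Spp1+Mmp13+ cells, of which 61.3% came from 1 cell, against 9.90 CPM in other No-Touch gate cells. In conventional Spp1+Mmp13+ cells it stood at 809 CPM, with 23.3% from the highest cell, against 100 CPM in other conventional gate cells. Cells of 10 or more Mmp13 UMIs reached 1594 CPM (No-Touch) and 2357 CPM (conventional), and cells of 1 UMI stood at 18.8 CPM (No-Touch) and 26.1 CPM (conventional).

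A single Mmp13 UMI was also found in cell types gated without regard to it. Among gate cells that met the Spp1 limit, 6.44% (3.65 to 10.4%) of No-Touch and 12.8% (8.78 to 17.7%) of conventional cells held exactly 1 Mmp13 UMI, at median depths of 26543 and 23287 UMIs. Endothelial gate cells held exactly 1 in 1.74% (0.927 to 2.95%) of No-Touch and 8.42% (7.01 to 10.0%) of conventional cells, at median depths of 16001 and 12961 UMIs. Schwann gate cells held exactly 1 in 2.58% of No-Touch and 9.96% of conventional cells. The intervals of the Spp1 cells and the endothelial cells did not overlap in the No-Touch library and overlapped in the conventional library, and the endothelial cells were shallower in both. Whether the cells chosen by 1 Mmp13 UMI hold background UMIs was not tested. Cells of 10 or more Mmp13 UMIs made up 3.86% of No-Touch (9 of 233) and 19.1% of conventional gate cells (45 of 235) that met the Spp1 limit, before the Pi16 and Saa3 limits. Under the Spp1 limit they made up 0.508% of No-Touch and 1.82% of conventional gate cells. Among endothelial cells they were 0 of 749 in the No-Touch library, which allows a share of up to 0.401% taken as 3 counts of the total, and 3 of 1378 (0.218%) in the conventional library.

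**Figure D1:**
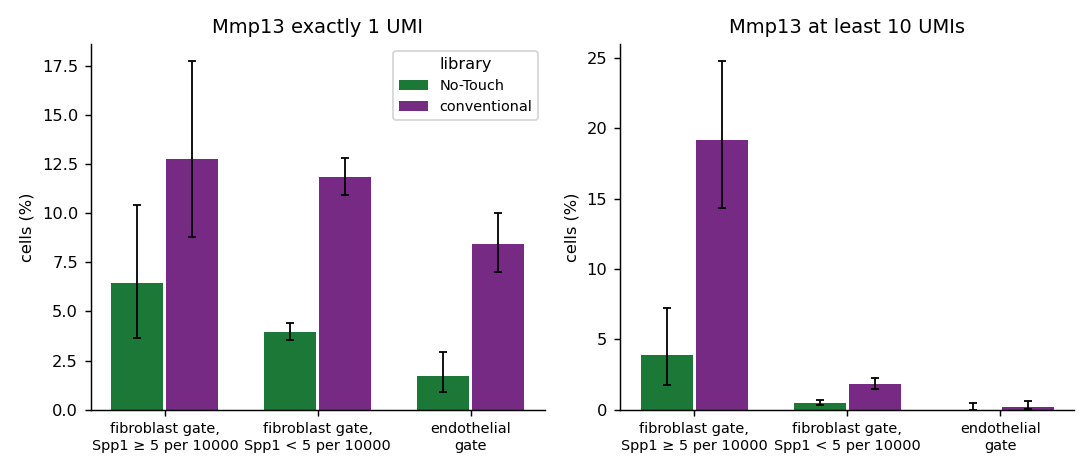
Percentage of cells with exactly 1 Mmp13 UMI (left) and with at least 10 (right) in gate cells above and below the Spp1 limit and in endothelial gate cells, No-Touch bars left of conventional bars, with exact 95% intervals as error bars. Exactly 1 UMI was found in 8.42% of conventional endothelial cells, while 10 or more were found in 19.1% of conventional gate cells above the Spp1 limit and 0.218% of conventional endothelial cells.

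Read from the other side, Spp1 reached its limit in 9 of the 48 No-Touch gate cells (18.8%) and 45 of the 130 conventional gate cells (34.6%) with 10 or more Mmp13 UMIs. Among gate cells with exactly 1 Mmp13 UMI it did so in 4.70% (No-Touch) and 5.14% (conventional), and among those with none in 2.74% (No-Touch) and 3.63% (conventional). Most gate cells rich in Mmp13 thus lay under the Spp1 limit in both libraries. Spp1 at its limit was also found in 15.8% of No-Touch and 21.6% of conventional mononuclear phagocyte gate cells, and in 1.20% of No-Touch and 2.98% of conventional endothelial gate cells.

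Spp1 per cell spread over more than an order of magnitude. In the 22 No-Touch cells it had a minimum of 5.02, a median of 21.6 and a maximum of 140 per 10000 UMIs, and in the 53 conventional cells a minimum of 5.55, a median of 23.9 and a maximum of 293. The ranges overlapped almost fully. The pooled level was 3352 CPM (3251 to 3455) in No-Touch Spp1+Mmp13+ cells against 87.1 CPM in other No-Touch gate cells. In conventional Spp1+Mmp13+ cells it was 5152 CPM (5049 to 5257) against 210 CPM in other conventional gate cells. The highest cell supplied 37.1% of the No-Touch and 13.9% of the conventional Spp1 UMIs. In the No-Touch library the same cell was highest in Spp1, with 1554 UMIs, and in Mmp13, with 532 UMIs, among 110787 UMIs in all. In the conventional library the cell with the most Spp1 UMIs held 1316 Spp1 UMIs and 1 Mmp13 UMI among 94853, and the cell with the most Mmp13 UMIs held 67 Spp1 and 347 Mmp13 UMIs. The highest conventional level per 10000 was in a shallower cell of 8375 UMIs, with 245 Spp1 and 14 Mmp13 UMIs.

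**Figure D2:**
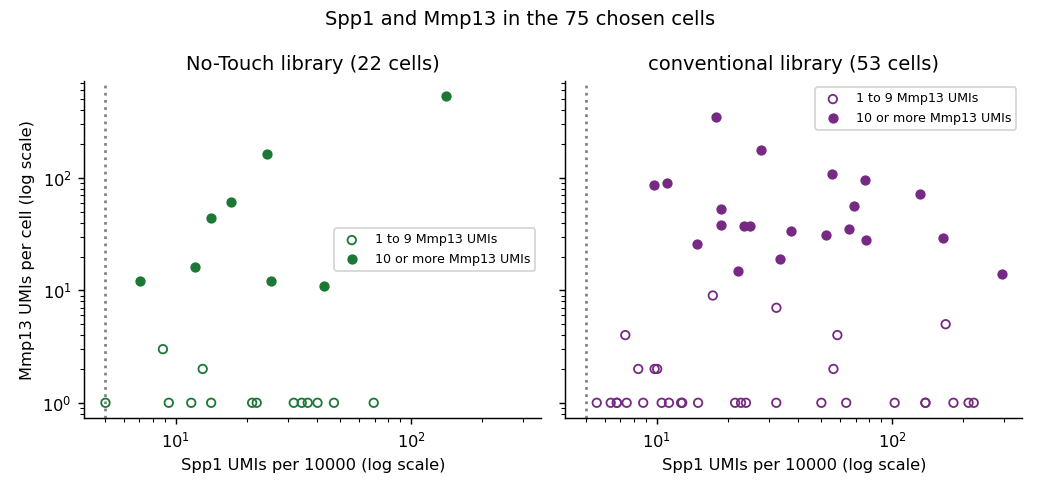
Each point is a Spp1+Mmp13+ cell, with Spp1 UMIs per 10000 on the x axis and Mmp13 UMIs on the y axis, both on log scales, in the No-Touch (left) and conventional (right) libraries; filled points hold 10 or more Mmp13 UMIs and the dotted line is the Spp1 limit. A row of 12 No-Touch and 23 conventional cells lies at exactly 1 Mmp13 UMI, with Spp1 up to 69.4 per 10000 (No-Touch) and 223 per 10000 (conventional), apart from 8 and 21 filled points.

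Besides the rule genes, Acta2 (alpha smooth muscle actin, chr19:34241090-34255590, minus strand) and Mgp (matrix Gla protein, an inhibitor of soft tissue calcification, chr6:136872435-136875823, minus strand) had been given as marks of these cells. Spp1 lies at chr5:104435118-104441050 and Mmp13 at chr9:7272514-7283331, both on the plus strand (GENCODE vM21, mm10). Acta2 stood at 526 CPM in Spp1+Mmp13+ cells against 138 CPM in other gate cells of the No-Touch library, and at 721 CPM against 143 CPM in the conventional library. The differences were 1.92 and 2.33 on the log2 scale of CPM + 1 used throughout. When 10 Mmp13 UMIs were required, the Acta2 differences were 2.32 (No-Touch) and 0.99 (conventional), the latter under 2 times. Conventional cells with 1 Mmp13 UMI had Acta2 at 900 CPM and those with 10 or more at 302 CPM. In No-Touch cells these levels were 424 CPM and 695 CPM. The level was uneven between cells: Acta2 lay above the 90th percentile of other gate cells in 10 of 22 No-Touch and 20 of 53 conventional cells, and at 0 in 4 and 10. Without the highest cell Acta2 was 409 CPM (No-Touch) and 533 CPM (conventional). In cells gated as smooth muscle it was 10119 CPM (No-Touch) and 9025 CPM (conventional).

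Among gate cells outside the rule, Acta2 stood higher with Spp1 alone than with Mmp13 alone. Cells at the Spp1 limit without Mmp13 had 386 CPM in the No-Touch and 477 CPM in the conventional library, whereas cells with Mmp13 under the Spp1 limit had 132 CPM (No-Touch) and 112 CPM (conventional). Both sets kept the Pi16 and Saa3 limits. After thinning to 3000 UMIs, Acta2 had a UMI in 12 of 22 No-Touch Spp1+Mmp13+ cells (54.5%) against 16.9% of other No-Touch gate cells, and in 19 of 53 conventional ones (35.8%) against 15.5% of other conventional gate cells. Endothelial cells, thinned alike, had an Acta2 UMI in 149 of 745 (No-Touch) and 199 of 1326 (conventional). Their pooled Acta2 level was 500 CPM (No-Touch) and 232 CPM (conventional), above that of the other gate cells, so they give no clean measure of background Acta2. Without thinning the shares were 81.8% against 66.6% in the No-Touch and 81.1% against 54.6% in the conventional library.

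Mgp was less than 2 times higher in the No-Touch cells and more than 2 times higher in the conventional cells than in other gate cells. In the No-Touch library it stood at 3474 CPM in Spp1+Mmp13+ cells against 2799 CPM in other gate cells (log2 difference 0.31), with 48.2% of the UMIs in 1 cell and 1868 CPM without that cell. In the conventional library it stood at 12412 CPM in Spp1+Mmp13+ cells against 5321 CPM in other gate cells (1.22). Gate cells at the Spp1 limit without Mmp13 held more Mgp than Spp1+Mmp13+ cells in both libraries, at 7784 CPM (No-Touch) and 14440 CPM (conventional). The No-Touch difference turned to -0.91 when 2 Mmp13 UMIs were required, to -0.92 with a collagen sum of at least 3%, and to -0.84 when 10 Mmp13 UMIs were required. Levels per cell ran from 2.61 to 452 per 10000 in the No-Touch and from 1.33 to 1083 in the conventional library. Of 22 No-Touch cells, 3 lay above the 90th percentile for Mgp and 10 for Acta2, with 1 in both. Of 53 conventional cells, 11 and 20 did so, with 3 in both. Whether these overlaps differ from those of unrelated genes was not tested.

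Of the 10 fibroblast markers, 4 were the collagen gate's own genes, so their summed level was fixed by the rule. Among the markers the rule did not use, Lum (lumican) had UMIs in all 22 No-Touch and 53 conventional cells and Pdgfra (a PDGF receptor) in 22 No-Touch and 47 conventional cells. Pdgfra was at 238 CPM against 256 CPM in the No-Touch library and at 200 CPM against 232 CPM in the conventional library. Smooth muscle markers summed to a median of 1.79 against 0.756 in the No-Touch and 2.98 against 0.850 in the conventional library. Among the smooth muscle markers, Tagln (transgelin) was at 233 CPM against 125 CPM in the No-Touch library and at 758 CPM against 130 CPM in the conventional library. The conventional Tagln UMIs were uneven between cells, with 530, 249 and 163 UMIs in the highest cells and none in others. Myh11, the smooth muscle myosin, was at 3.20 CPM against 11.4 CPM in the No-Touch and at 25.5 CPM against 14.04 CPM in the conventional library. Endothelial markers lay near 0, with Cdh5 at 0 by the rule and medians of 0.0451 (No-Touch) and 0.266 (conventional) per 10000 against 0.188 and 0.243 in other gate cells. Of 9 osteoblast markers, Sp7 was at 0 in both libraries and 7 were at 0 in the No-Touch cells, with medians of 0.315 (No-Touch) and 0.365 (conventional) per 10000 against 0.103 (No-Touch) and 0 (conventional) in other gate cells.

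Some cells held transcripts of other cell types. A Ptprc (CD45) UMI was found in 4 of 22 No-Touch cells (18.2%) and 1 of 53 conventional cells (1.89%), although the sort removed CD45 positive cells. The shares in the shallower other gate cells were 5.32% (No-Touch) and 2.47% (conventional), so the conventional share was not above theirs. At least 10 UMIs of Lyz2, the lysozyme of macrophages and neutrophils, were in 2 No-Touch and 0 conventional cells, and at least 100 UMIs of Pth, parathyroid hormone, in 1 No-Touch and 0 conventional cells. Mononuclear phagocyte markers summed to a median of 0.212 (maximum 45.6) in No-Touch Spp1+Mmp13+ cells against 0.201 in other gate cells, and of 0.261 (maximum 4.74) in conventional ones against 0 in other gate cells. Doublet scores above the 92nd percentile of the library fell to 5 No-Touch and 5 conventional cells. Their part in the results was not tested beyond the values without such barcodes.

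Of 2927 genes of at least 50 CPM in either set in both libraries, 48 (1.64%) were at least 2 times higher in Spp1+Mmp13+ cells than in other gate cells in both libraries, and 37 (1.26%) at least 2 times lower. The median over all these genes was 0.04 in the No-Touch and 0.14 in the conventional library. Under TMM scaling the conventional median was -0.07 and the counts were 34 higher and 54 lower, and under median-of-ratios scaling -0.05 with 36 and 52, so how many genes were higher or lower depended on scaling. The 12 highest and 10 lowest named genes stayed at least 2 times apart in both libraries under both scalings. Taken alone, the No-Touch library had 72 genes higher (2.25%) and 51 lower (1.59%) of 3204, and the conventional library 195 higher (5.93%) and 205 lower (6.23%) of 3290.

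Tnfsf11, the cytokine RANKL that drives osteoclast formation, was among the secreted signals far apart in both libraries. It stood at 106 CPM in Spp1+Mmp13+ cells against 10.5 CPM in other gate cells of the No-Touch library, with UMIs in 9 of 22 cells. In the conventional library it stood at 90.6 CPM against 11.0 CPM, with UMIs in 27 of 53 cells. Gate cells at the Spp1 limit without Mmp13 had Tnfsf11 at 36.3 CPM (No-Touch) and 45.4 CPM (conventional). Pdgfa, a growth factor for mesenchymal cells, was at 293 CPM against 64.1 CPM (No-Touch) and 349 CPM against 76.0 CPM (conventional). In the No-Touch library 41.3% of the Pdgfa UMIs came from 1 cell, and without that cell it was at 189 CPM. Smooth muscle gate cells held more Pdgfa, at 321 CPM (No-Touch) and 626 CPM (conventional). Inhba, the activin A subunit, was at 149 CPM against 44.8 CPM (No-Touch) and 705 CPM against 92.5 CPM (conventional), and lay above the 90th percentile in 9 of 22 and 33 of 53 cells. Of 17 TGF-beta, activin and BMP signal genes that passed the level, 3 were higher in both libraries (Inhba, Tgfb1, Tgfbi) and 0 lower, with medians of -0.19 (No-Touch) and -0.10 (conventional). Tgfb1 was at 59.2 CPM against 29.1 CPM (No-Touch) and 105 CPM against 44.3 CPM (conventional). Of 16 cytokines and chemokines, only Cxcl5, a neutrophil attractant, was higher in both, at 1362 CPM against 481 CPM (No-Touch) and 1672 CPM against 522 CPM (conventional), and 0 were lower. Cxcl3, a chemokine that was not on that list, was also higher in both libraries. It rested on 2 No-Touch cells, at 235 CPM against 19.1 CPM, and on 8 conventional cells, at 72.2 CPM against 12.0 CPM. Its No-Touch log2 difference turned to -4.33 without the barcodes rich in Lyz2 or Pth, to -4.29 without the highest doublet scores and to -4.10 without barcodes with leukocyte genes.

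For the partners of Mmp13, 6 matrix metalloproteinases passed the level and Mmp13 alone was 2 times higher in both libraries. Mmp3 (stromelysin-1) was at 793 CPM against 605 CPM in the No-Touch and 1889 CPM against 934 CPM in the conventional library. Mmp14, a membrane enzyme that can activate the Mmp13 proenzyme, was at 539 CPM against 398 CPM (No-Touch) and 589 CPM against 371 CPM (conventional). Mmp2 (gelatinase A) was on the lower side, at 782 CPM against 1127 CPM (No-Touch) and 831 CPM against 1083 CPM (conventional). Timp1 was higher in both, at 1927 CPM against 645 CPM (No-Touch, 1.58) and 5036 CPM against 906 CPM (conventional, 2.47), above the 90th percentile in 12 of 22 and 24 of 53 cells. Timp2 was at 1063 CPM against 1379 CPM (No-Touch) and 1050 CPM against 1606 CPM (conventional). Of 10 plasminogen system and cathepsin genes, only Serpine2 (protease nexin-1) was higher in both, at 283 CPM against 87.2 CPM (No-Touch) and 428 CPM against 88.7 CPM (conventional). Ctsc (cathepsin C), which was not on that list, was at 195 CPM against 49.2 CPM (No-Touch) and 304 CPM against 80.4 CPM (conventional).

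**Figure D3:**
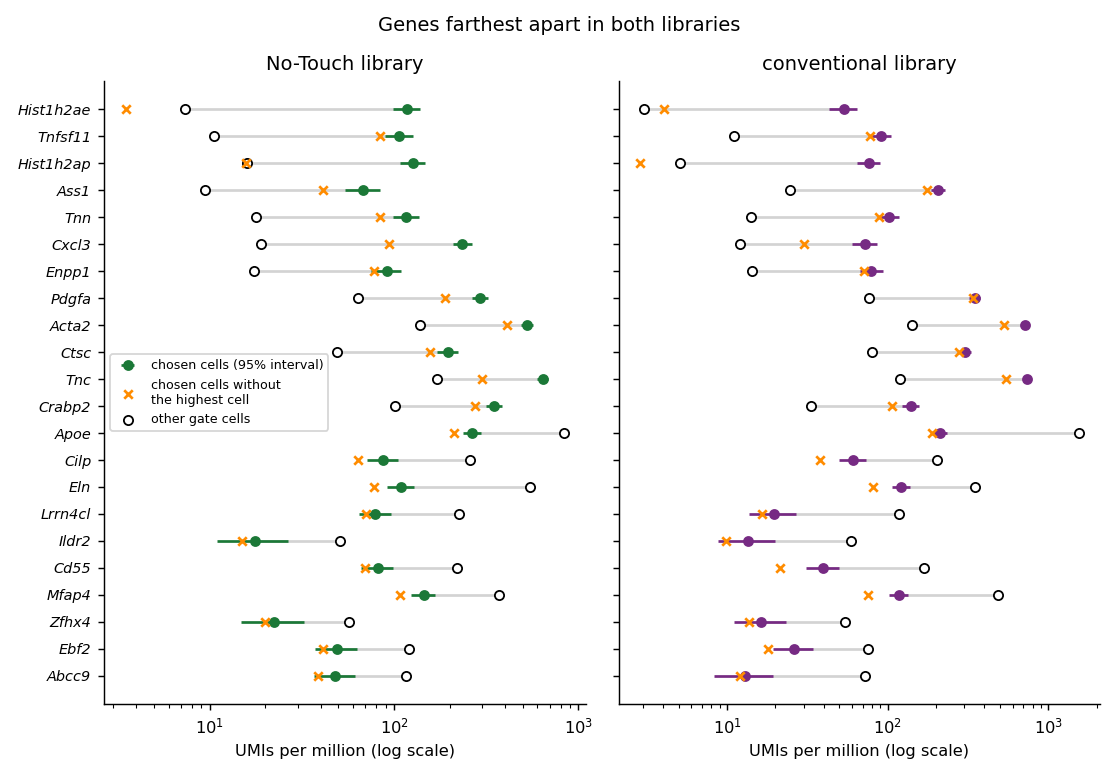
CPM (log scale) of the 12 genes farthest above and 10 farthest below other gate cells in both libraries, No-Touch left and conventional right; filled points are pooled Spp1+Mmp13+ cells (chosen cells) with 95% intervals, crosses the same without the highest cell, open points other gate cells. Tnc stood at 301 CPM in the No-Touch cells without the highest cell, against 172 CPM in other No-Touch gate cells.

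For osteopontin, 0 of 5 receptor genes that passed the level were 2 times apart in both libraries, with medians of 0.28 (No-Touch) and 0.65 (conventional). Cd44 was at 458 CPM against 443 CPM (No-Touch) and 419 CPM against 320 CPM (conventional), and Itgav, the alpha v integrin, at 72.0 CPM against 55.6 CPM (No-Touch) and 104 CPM against 66.2 CPM (conventional). Fn1, the fibronectin gene, was at 3257 CPM against 3167 CPM (No-Touch) and 3548 CPM against 2402 CPM (conventional).

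Matrix genes split. Tnc (tenascin-C) was at 641 CPM against 172 CPM in the No-Touch library, where 58.6% of the UMIs came from 1 cell. In the conventional library it was at 739 CPM against 120 CPM, with 30.0% of the UMIs from 1 cell. Gate cells at the Spp1 limit without Mmp13 had Tnc at 495 CPM (No-Touch) and 387.5 CPM (conventional). Spp1+Mmp13+ cells with 1 Mmp13 UMI had 892 CPM (No-Touch) and 1160 CPM (conventional). Those with 10 or more had 401 CPM (No-Touch) and 191 CPM (conventional). Tnn (tenascin-N) was at 117 CPM against 17.9 CPM (No-Touch) and 103 CPM against 14.02 CPM (conventional), with UMIs in 10 of 22 and 23 of 53 cells. Col12a1, a fibril-associated collagen, was at 272 CPM against 120 CPM (No-Touch) and 371 CPM against 90.8 CPM (conventional), while Col14a1, of the same family, was at 545 CPM against 1106 CPM (No-Touch) and 233 CPM against 760 CPM (conventional). Of 24 small proteoglycan and matrix glycoprotein genes, 0 were higher and 4 lower in both (Eln, Mfap4, Fbln1, Ogn). Eln (elastin) was at 109 CPM against 548 CPM (No-Touch) and 122 CPM against 351 CPM (conventional), and Mfap4, a microfibril-associated protein, at 145 CPM against 371 CPM (No-Touch) and 118 CPM against 485 CPM (conventional). Fbln1 (fibulin-1) was at 188 CPM against 450 CPM (No-Touch) and 242 CPM against 707 CPM (conventional). Cilp, a cartilage intermediate layer protein, was at 87.2 CPM against 258 CPM (No-Touch) and 60.8 CPM against 204 CPM (conventional).

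Of 10 contractile genes that passed the level, 2 were higher in both libraries (Acta2 and Tpm2) and 0 lower, with medians of 0.66 (No-Touch) and 1.28 (conventional). Tpm2 (beta-tropomyosin) was at 277 CPM against 97.2 CPM (No-Touch) and 358 CPM against 81.4 CPM (conventional). Cnn1 (calponin-1) did not pass the level, at 2.40 CPM against 5.16 CPM (No-Touch) and 37.99 CPM against 5.03 CPM (conventional), with 74.3% of its conventional UMIs in 1 cell. Of 18 myofibroblast activation genes, 3 were higher (Tnc, Col12a1, Ddah1) and 1 lower (Cilp). Postn (periostin), often used for activated fibroblasts, was at 1875 CPM against 1497 CPM (No-Touch) and 1235 CPM against 756 CPM (conventional).

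Of 27 calcification and osteochondrogenic genes, 3 passed the level, of which Tnfsf11 and Enpp1 were higher in both libraries and 0 lower; the other was Msx1, a homeobox gene. Enpp1, which makes the mineralization inhibitor pyrophosphate, was at 91.2 CPM against 17.4 CPM (No-Touch) and 79.2 CPM against 14.2 CPM (conventional). It lay above the 90th percentile of other gate cells in 13 of 22 No-Touch and 29 of 53 conventional cells. Gate cells at the Spp1 limit without Mmp13 had Enpp1 at 67.9 CPM (No-Touch) and 99.5 CPM (conventional), so its level was not particular to Spp1+Mmp13+ cells. Thinned to 3000 UMIs, Enpp1 had a UMI in 27.3% of No-Touch cells against 3.31% of other gate cells, and in 15.1% of conventional cells against 3.47%, while endothelial cells had one in 0.537% (No-Touch) and 0.528% (conventional). Runx2, the osteoblast regulator, was at 31.2 CPM against 22.4 CPM (No-Touch) and 37.4 CPM against 18.4 CPM (conventional). Acan (aggrecan) was at 6.40 CPM against 6.50 CPM in the No-Touch and 64.0 CPM against 4.98 CPM in the conventional library.

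Of 11 hypoxia and glycolysis genes, 3 were higher in both (Pgk1, Eno1, Pkm) and 0 lower, with medians of 0.78 (No-Touch) and 0.81 (conventional). Pkm (pyruvate kinase) was at 381 CPM against 188 CPM (No-Touch) and 634 CPM against 270 CPM (conventional), and Eno1 (enolase) at 177 CPM against 81.0 CPM (No-Touch) and 333 CPM against 125 CPM (conventional). Ass1 (argininosuccinate synthase) was at 68.0 CPM against 9.48 CPM (No-Touch) and 205 CPM against 24.6 CPM (conventional). In the No-Touch library 42.4% of its UMIs came from 1 cell, and without that cell it was at 41.2 CPM. Mononuclear phagocyte gate cells had Ass1 at 151 CPM (No-Touch) and 87.4 CPM (conventional). In gate cells at the Spp1 limit without Mmp13, Ass1 was at 46.7 CPM (No-Touch) and 190 CPM (conventional). Crabp2, a retinoic acid binding protein, was at 349 CPM against 101 CPM (No-Touch) and 139 CPM against 33.3 CPM (conventional). The histone genes Hist1h2ae and Hist1h2ap, which are close copies of other histone genes, were among the highest, and single cells supplied 97.3% (No-Touch) and 92.9% (conventional) of Hist1h2ae and 88.6% (No-Touch) and 96.5% (conventional) of Hist1h2ap UMIs.

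Among regulators that act on the Mmp13 promoter, 15 passed the level, 1 was higher in both libraries (Ets1) and 0 lower, with medians of -0.39 (No-Touch) and -0.52 (conventional). Ets1, which binds Ets motifs, was at 52.8 CPM against 24.4 CPM (No-Touch) and 87.4 CPM against 31.5 CPM (conventional). Fos, an AP-1 subunit, was at 3044 CPM against 4685 CPM (No-Touch) and 1428 CPM against 2976 CPM (conventional). Of 37 higher genes with a promoter in the RefSeq table, Spp1 and Mmp13 left out because the rule chose on them, 0 held the AP-1 letters, 1 (2.70%) the Runx letters and 20 (54.1%) the PEA3 letters. Of 2288 genes that passed the level, 3.06% held the AP-1, 2.84% the Runx and 27.4% the PEA3 letters. These shares are descriptions, without a test.

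Among the genes farthest below the other gate cells, Apoe (apolipoprotein E) was at 266 CPM against 834 CPM (No-Touch) and 211 CPM against 1545 CPM (conventional), and Igf1 (insulin-like growth factor 1) at 255 CPM against 567 CPM (No-Touch) and 97.1 CPM against 399 CPM (conventional). Of 9 complement genes, 1 was lower in both (Cd55, a complement regulator) and 0 higher, with medians of -0.62 (No-Touch) and -1.56 (conventional). C3 was at 1834 CPM against 2866 CPM (No-Touch) and 1457 CPM against 5832 CPM (conventional). Gsn (gelsolin), on the fibroblast marker list, was at 1791 CPM against 3648 CPM (No-Touch) and 712 CPM against 4073 CPM (conventional). Lrrn4cl, Ildr2, Zfhx4, Ebf2 and Abcc9 were the other genes of the lowest 10.

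**Figure D4:**
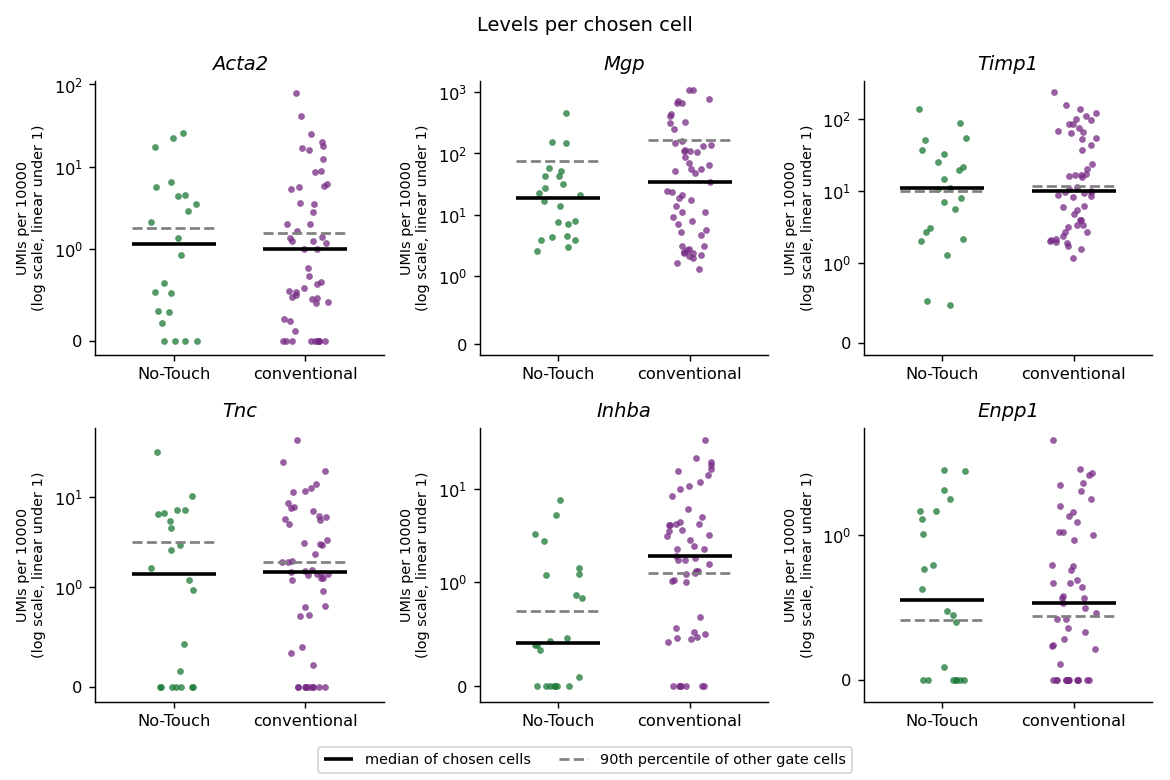
Levels per Spp1+Mmp13+ cell of Acta2, Mgp, Timp1, Tnc, Inhba and Enpp1 in UMIs per 10000 (log scale, linear under 1), No-Touch left of conventional in each panel; the black line is their median and the dashed line the 90th percentile of other gate cells. Cells lie on both sides of the dashed line for every gene, with 12 of 22 No-Touch and 24 of 53 conventional cells above it for Timp1.

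The higher genes were not all high in the same cells. Of cells above the 90th percentile of other gate cells, 7 No-Touch cells were high in both Acta2 (10 cells) and Timp1 (12 cells), and 10 conventional cells in both Acta2 (20 cells) and Timp1 (24 cells). Timp1 and Inhba (33 cells) were high together in 18 conventional cells, and Timp1 and Tnc (23 cells) in 14. Few cells differed widely from the rest. A conventional cell with 443 Spp1 UMIs and 1 Mmp13 UMI held the highest Acta2 level, 77.9 per 10000, with 716 Mgp and 17.1 Acan UMIs per 10000. Another, with 335 Spp1 UMIs and 1 Mmp13 UMI, held 44 UMIs of Ibsp (bone sialoprotein), 11 of Acan and none of Acta2. A conventional cell with 41 Spp1 UMIs held 201 of the 206 UMIs of Col10a1, the collagen of hypertrophic cartilage, beside 43 Acan and 19 Ibsp UMIs. No Col10a1 or Ibsp UMI was found in the No-Touch Spp1+Mmp13+ cells.

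When all gate cells were clustered on variable genes without the rule genes, the Spp1+Mmp13+ cells spread over 12 of 18 clusters. Cluster 16, led by Grem1 and Kif26b, held the most, 25 of 75 (33.3%), all conventional. Of its 661 cells 652 were conventional, and whether it reflects the library or a type was not tested. Mmp13 was at 689 CPM in its conventional cells and 760 CPM in its 9 No-Touch cells. Clusters 3, 4, 14, 15 and 17 were also nearly all conventional, with Mmp13 at no more than 12.7 CPM in their conventional cells. Cluster 1, led by Csf2 and Crabp2, held 7 No-Touch and 9 conventional Spp1+Mmp13+ cells, and cluster 12, led by Col2a1 and Rgs5, 1 No-Touch and 8 conventional cells. Of the 29 cells with 10 or more Mmp13 UMIs, 16 lay in cluster 16, as did 94 of the 149 gate cells with as many outside the rule. The 35 cells with 1 Mmp13 UMI spread over 11 clusters, with 7 in cluster 1, 7 in cluster 12 and 6 in cluster 16. In the neighbour graph, which links 2 cells when either is among the other's 15 nearest, 10 of 22 No-Touch cells and 43 of 53 conventional cells were linked to another Spp1+Mmp13+ cell, while 4.99% of other No-Touch and 9.13% of other conventional gate cells were linked to such a cell. Of the links of each Spp1+Mmp13+ cell, a median of 0% (No-Touch, maximum 11.1%) and 8.70% (conventional, maximum 47.1%) went to another Spp1+Mmp13+ cell.

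**Figure D5:**
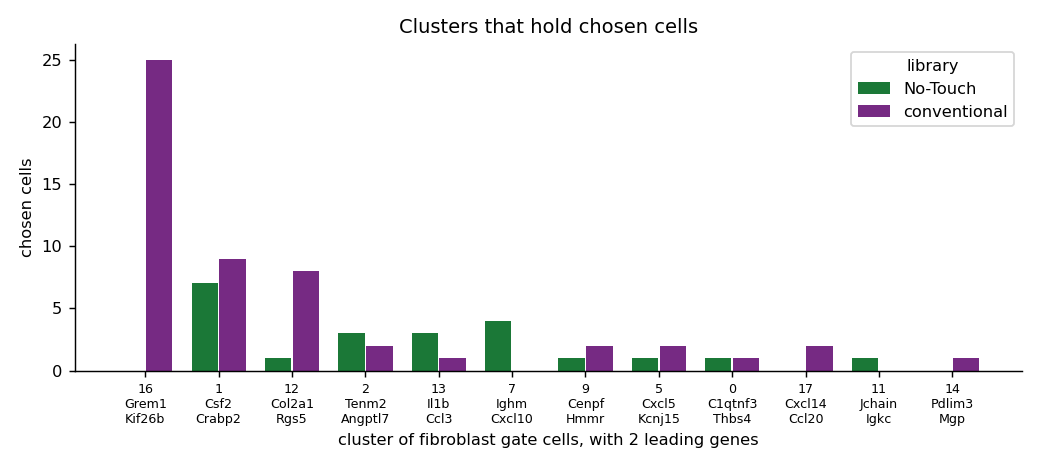
Number of Spp1+Mmp13+ cells in each of the 12 clusters of gate cells that hold any, with 2 leading genes under each cluster number, No-Touch bars left of conventional bars. Cluster 16 holds 25 conventional and no No-Touch cells, and cluster 1 holds 7 No-Touch and 9 conventional cells.

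Between the libraries, 172 of 3372 genes (5.10%) were at least 2 times higher in No-Touch than in conventional Spp1+Mmp13+ cells and 135 (4.00%) at least 2 times lower, with a median over all genes of -0.03. Of 19 interferon response genes, 14 were 2 times higher in No-Touch cells and 0 lower, with a median of 1.55. Of the mononuclear phagocyte markers, 3 passed the level and all 3 were higher (Lyz2, Fcer1g, Cd14), with a median of 3.95 against -0.60 in other gate cells. Isg15 was at 411 CPM in No-Touch against 54.8 CPM in conventional cells, and Ifit1 at 209 CPM against 13.0 CPM. Both genes were also higher in the other No-Touch gate cells, Isg15 at 420 CPM against 130 CPM and Ifit1 at 175 CPM against 67.0 CPM, and the median of these 19 genes there was 0.78. Of 14 antigen presentation genes 7 were 2 times higher and 0 lower, with a median of 1.03 against 0.19 in other gate cells. The 7 included the MHC class II genes H2-Aa, H2-Ab1, H2-Eb1 and Cd74, chiefly expressed by leukocytes. Cd74 was at 137 CPM in No-Touch against 34.2 CPM in conventional cells, with 47.95% of its No-Touch UMIs in 1 cell, and at 42.4 CPM against 114 CPM in the other gate cells.

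Genes lower in the No-Touch cells included 4 of 20 TGF-beta, activin and BMP signal genes (Inhba, Grem1, Ltbp2, Fstl3), with 0 higher, and 4 of 14 contractile genes (Tagln, Mylk, Actg2, Des), with 0 higher. Markers of other cell types were lower as well, namely 3 of 4 smooth muscle markers (median -1.85 against -0.22 in other gate cells), 2 of 2 pericyte markers (Rgs5 and Cspg4, -2.18 against -0.33) and 3 of 4 chondrocyte markers (Acan, Col11a1 and Comp, -1.99 against -0.13), and their part was not tested. Tagln was uneven between the conventional cells, with 530 UMIs in the highest. Inhba stood at 149 CPM in No-Touch against 705 CPM in conventional cells (-2.24), and at 44.8 CPM against 92.5 CPM in the other gate cells. Grem1, a BMP antagonist, was at 11.2 CPM against 208 CPM, Ereg (epiregulin) at 26.4 CPM against 433 CPM, and Timp1 at 1927 CPM against 5036 CPM (-1.39). Lcn2 (lipocalin-2) was at 64.8 CPM against 776 CPM, with 52.8% of the conventional UMIs in 1 cell. Il1rl1 (the IL-33 receptor) was at 12.8 CPM against 167 CPM, in 5 No-Touch and 9 conventional cells.

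Further genes apart between the libraries also rested on few cells or were apart in all gate cells. Pth stood at 4328 CPM in No-Touch cells, with 99.8% in 1 cell that also held 99.7% of the Chga (chromogranin A) UMIs, against 191 CPM in conventional cells. Every conventional Spp1+Mmp13+ cell held a Pth UMI, with a median of 1.70 per 10000 against 1.76 in other conventional gate cells, while 9 of 22 No-Touch cells did. Mmp12 (macrophage elastase) was found in 1 No-Touch cell, and 2 No-Touch cells supplied most of Lyz2, at 123 CPM against 7.06 CPM in conventional cells. Sfrp2, a Wnt modulator, was at 1128 CPM against 109 CPM in Spp1+Mmp13+ cells and at 2364 CPM against 990 CPM in other gate cells, and Has1 (hyaluronan synthase 1) at 555 CPM against 67.3 CPM and at 691 CPM against 236 CPM. The noncoding gene Gt(ROSA)26Sor was at 13.6 CPM against 258 CPM in Spp1+Mmp13+ cells and at 13.1 CPM against 200 CPM in other gate cells. Xist, the RNA of the inactive X chromosome, had 1 UMI in No-Touch Spp1+Mmp13+ cells and 250 UMIs, in 16 of 53 cells, in conventional ones, while the Y-linked Ddx3y was at 97.6 CPM against 70.0 CPM. The part of these transcripts and of depth in the differences was not tested, and with 1 library per graft type the graft type and the library cannot be told apart.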

How the data were processed

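Single-cell RNA was counted in 2 libraries of CD45 negative vein graft cells, grouped by what the titles say of the graft. The authors deposited raw UMI counts for each gene and barcode. Per the submitters' processing notes they were made with Cell Ranger 3.1.0 on mm10, while the file headers name Cell Ranger 6.0.0, which could not be settled. No source used here states the strand setting of the counting, so genes that overlap an antisense partner are uncertain. The members and gene lists were chosen with earlier results of these data known.

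UMIs were summed per library and set of cells, scaled to CPM and compared as log2 of CPM + 1. Genes of at least 50 CPM in either set were counted when at least 2 times apart. Means over replicates do not exist, since each group is 1 library, so no p-value is given. Scrublet (scanpy 1.11.5) marked no Spp1+Mmp13+ cell with its automatic threshold, and no barcode was removed for its doublet score. Its threshold had marked no No-Touch barcode at all, so removal of the highest 8% is an alternative. Clusters (Leiden, resolution 1.0) used 2000 variable genes, 30 principal components and 15 neighbours, without integration. TMM factors came from edgeR 4.0.16 in R 4.3.3. Calls were tested on simulated data, drawn as pooled Poisson counts without spread between cells. That checks how the calls are computed, not how far they hold for genes carried by few cells.

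Named genes were the rule genes and label markers, then the 12 highest and 10 lowest by the smaller of the 2 libraries' ratios, from 50 CPM in both libraries in the higher set of cells and going the same way in both. Added to these were the 10 highest and 10 lowest of No-Touch over conventional from 100 CPM with 95% Poisson intervals that did not overlap. Both left out rule, mitochondrial, ribosomal, haemoglobin, immunoglobulin, sex-linked and predicted genes. Each list gave up to 4 genes with the largest ratios from 20 CPM, its 2 highest, and defining markers of other cell types. Genes outside this rule, among them Xist, Ddx3y and genes of single cells, were picked with their values known. Positions are GENCODE vM21 on mm10. The 45 lists include markers of other cell types, of which the report and the closing section give the results. Alternatives for the rule, the levels, the scaling and the clusters are given there too.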

Additional observations from a re-analysis of the deposited data

How the results depend on the processing

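No paired analysis was possible because each group is 1 library and no result comes from a test. Of 88 values of shares and counts under the alternatives, 65 stayed near the main value, and the No-Touch share was below the conventional share under every alternative run. Requiring 2 Mmp13 UMIs gave shares of 0.126% (No-Touch) and 0.610% (conventional) and 72 genes lower in both libraries. Requiring 10, chosen after seeing the data, gave 0.101% and 0.427%, 78 genes lower, and 322 genes higher in No-Touch than conventional cells. Thinned to 3000 UMIs the shares were 0.105% and 0.630%, and without the Pi16 and Saa3 limits the conventional share was 1.77%. Genes lower in both libraries numbered 73 without the 8% highest doublet scores, 66 without barcodes with leukocyte genes, and 57 without barcodes of 100 or more Pth or 10 or more Lyz2 UMIs, also chosen after seeing the data. With genes from 20 CPM, 85 were higher and 56 lower, and 332 and 292 between the libraries; with no minimum, 268, 187, 1422 and 1453. The fullest cluster held 48.0% of the cells at resolution 0.5 and 52.0% with 30 neighbours. Of the 12 named higher genes, 12 stayed 2 times higher in both libraries in most alternatives, but 9 without high doublet scores, 9 without leukocyte genes, 9 with a collagen sum of 3%, 10 with 2 Mmp13 UMIs, 7 with 10 and 11 without the Pth and Lyz2 barcodes. Of the 10 named lower genes, 9 stayed 2 times lower with a collagen sum of 3% and 10 in the other alternatives. Of 1024 log2 ratios of single genes under alternatives, 26 changed sign. Without high doublet scores these were Hist1h2ap (conventional, -0.49), Cxcl3 (No-Touch, -4.29), Mmp12 (-2.07) and Lyz2 (-0.28) between libraries. Without leukocyte genes they were Hist1h2ae (No-Touch, -0.43), Cxcl3 (-4.10), Mmp12 (-1.76) and Lyz2 (-0.28). With 2 Mmp13 UMIs they were Hist1h2ap (-0.23), Pth (-4.73) and Chga (-3.21), and with 10 Hist1h2ap (-0.29), Cxcl3 (conventional, -0.89), Pth (-4.53), Chga (-2.53) and Il1rl1 (1.32). With a collagen sum of 3% they were Hist1h2ae (No-Touch -0.50, conventional -0.063), Hist1h2ap (No-Touch -0.00, conventional -1.70), Pth (-4.30) and Chga (-3.78). Without the Pth and Lyz2 barcodes they were Cxcl3 (-4.33), Mmp12 (-1.89), Pth (-4.36) and Chga (-3.45). These alternatives leave out the few cells that carried those genes, and the cause of the other changes was not tested. Depth limits a rule of 1 Mmp13 UMI, and 6 of 22 No-Touch and 27 of 53 conventional cells passed when thinned.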

Other observations

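Other gene lists held few genes at least 2 times apart between Spp1+Mmp13+ cells and other gate cells in both libraries. Of 13 modulated smooth muscle genes 2 were higher (Spp1, which the rule used, and Timp1) and 1 lower (Klf4, a regulator of smooth muscle modulation). Of 16 fibroblast state genes 1 was higher (Crabp2) and 3 lower (Sema3c, Abcc9, Pcolce2). Of 16 growth factors and receptors 1 was higher (Pdgfa) and 1 lower (Igf1), of 4 inhibitors of calcification 1 was higher (Enpp1) and 0 lower, of 5 Wnt pathway genes 1 was lower (Sfrp2) and 0 higher, and of 11 foam cell and lysosome genes 1 was lower (Apoe) and 0 higher. Of 20 immediate early and heat shock genes 1 was lower (Egr1) and 0 higher, with medians of -0.56 (No-Touch) and -0.58 (conventional). Of 14 fibrillar and associated collagens 1 was higher (Col12a1) and 1 lower (Col14a1), of 3 metalloproteinase inhibitors 1 was higher (Timp1), and of 3 osteopontin family and partner genes 1 was higher (Spp1 itself). Lists with 0 genes in either direction were 7 ADAM and ADAMTS proteases, 9 basement membrane genes, 21 NF-kappaB targets, 18 unfolded protein response genes, 12 interferon response genes, 10 antigen presentation genes and 1 proliferation gene.

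Cell cycle transcripts were present in some cells. An Mki67 or Top2a UMI was found in 6 of 22 No-Touch and 14 of 53 conventional Spp1+Mmp13+ cells. No share of other gate cells stands beside these counts, and Spp1+Mmp13+ cells were deeper. The counts therefore do not show whether they cycle more than other gate cells. The No-Touch cell with the most Spp1 and Mmp13 held 10 Mki67 and 27 Top2a UMIs, and also 12 Ptprc UMIs.

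Marker lists of cell types outside the fibroblast gate were summed per cell, in UMIs per 10000. At least 3 chondrocyte markers were found in 7 of 22 No-Touch Spp1+Mmp13+ cells against 11.98% of other No-Touch gate cells, and in 20 of 53 conventional ones against 7.21% of other conventional gate cells. Spp1+Mmp13+ cells were deeper, which makes it easier to find 3 markers, so these shares do not compare like with like. The sum of chondrocyte markers had a median of 1.15 (maximum 6.69) against 1.02 in the No-Touch library and of 2.21 (maximum 224) against 1.03 in the conventional library. It lay above the 90th percentile of other gate cells in 0 of 22 No-Touch and 9 of 53 conventional cells. Pericyte markers had medians of 0.679 against 1.51 (No-Touch) and 1.46 against 1.17 (conventional), Schwann markers of 0.252 against 0.141 (No-Touch) and 0.453 against 0 (conventional), and adipocyte markers of 1.02 against 0.725 (No-Touch) and 2.00 against 1.29 (conventional). Epithelial and parathyroid markers had medians of 0 against 0 (No-Touch, maximum 855) and 1.83 against 1.93 (conventional). Mesothelial markers had medians of 0 against 0 (No-Touch) and 0.110 against 0 (conventional). Neutrophil, lymphocyte and haemoglobin lists had medians of 0 in both sets and both libraries. The defining markers Sox10 (Schwann, by the rule), Adipoq (adipocyte), Msln (mesothelial), Ly6g (neutrophil) and Ms4a1 (B cell) were at 0 in the Spp1+Mmp13+ cells of both libraries.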
